A study of Mus musculus with 14 samples.

Results

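Islands of chromatin enriched with a Gfi1 antibody were compared between mouse neurospheres labelled Suz12F2 and neurospheres labelled Cas9. All islands of both deposited lists were taken, 63177 from Cas9 and 67079 from Suz12F2 neurospheres, or 130256 of the 201448 regions in the 11 lists analysed. Each list came from 1 library of chromatin immunoprecipitation followed by sequencing (ChIP-seq). Both cultures carried the genotype p53-/-;p18-/-, which was shared by every library used here, and were profiled with the same rabbit antibody against Gfi1. The titles are the sole place where the cultures differ. The genotype label lists no change of Suz12, and the labels do not say what F2 stands for, whether Suz12 was lost, or whether a culture was 1 clone. The labels call the source neurospheres, while the growth text speaks of medulloblastoma tumorspheres that were infected with retroviral vectors and sorted by fluorescence. No expression values accompany the lists, so the cell type was not checked. For comparison, 6 region lists from p53-/-;p18-/- tumour cells labelled Cas9 or Ezh2 knockout (H3K4me3, H3K27ac and H3K27me3) and 3 lists made with a Cas9 antibody in neurospheres were used.

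Gfi1 is a zinc finger protein that binds DNA and represses transcription by recruiting histone-modifying enzymes, and it is known as an oncogene in medulloblastoma. Suz12 is a core subunit of Polycomb repressive complex 2, whose enzymatic subunit Ezh2 places H3K27me3 on silenced genes. H3K4me3 marks promoters, and H3K27ac marks active promoters and enhancers. An island is a run of enriched windows joined across short gaps, so its length depends on signal and on the gap rule alike. Each group held 1 library and the depth behind each list is unknown, so no difference below has a replicate error and no test across samples was possible. Intervals in brackets are Wilson 95% intervals, which cover counting error alone, and positions are in build mm9.

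Suz12F2 islands were more numerous and shorter. The number ratio of Suz12F2 over Cas9 was 1.06, the ratio of covered length 0.799 and the ratio of median length 0.75. Median length was 4000 bp in Cas9 (quartiles 2400 and 6600) and 3000 bp in Suz12F2 (quartiles 1800 and 5000). At the 95th percentile a Cas9 island measured 16600 bp and a Suz12F2 island 12400 bp. The longest single island of either list was nevertheless a Suz12F2 island, at 144.6 kb against 127.2 kb for the longest in Cas9. Islands under 2 kb numbered 866 (under 1 kb) and 8013 (1 to 2 kb) in Cas9, and 3238 and 14664 in Suz12F2. Between 2 and 5 kb the lists held 30252 and 31758 islands, and above that length every class was larger in Cas9. Islands of 20 kb and over numbered 2174 in Cas9 and 1174 in Suz12F2, and they made up 18.3% and 12.0% of the covered length. The islands covered 14.3% (Cas9) and 11.4% (Suz12F2) of the chromosome spans.

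**Figure D1:**
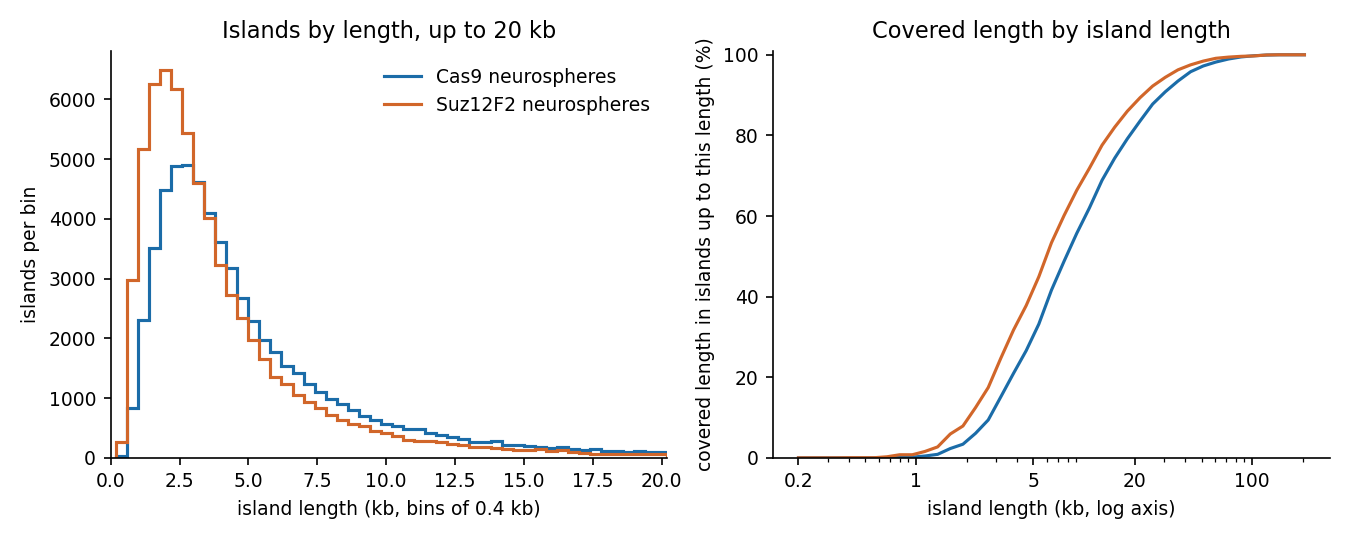
Left, number of islands per bin of 0.4 kb of island length (kb) in each list, up to 20 kb; right, share of each list's covered length (%) that lies in islands up to a given length (kb, log axis). The Suz12F2 curve peaks at shorter lengths (median 3000 bp against 4000 bp) and its covered length builds up from shorter islands.

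The score that the authors gave each island rose with length, with a rank correlation across islands of 0.948 in Cas9 (n = 63177) and 0.848 in Suz12F2 (n = 67079). Islands within a list share a library, and the meaning of the score is not stated, so it was read within each list and never between lists. Per kb of island it ran the other way, with rank correlations of -0.23 and -0.30. The relation was not a steady decline. In Cas9 the median score per kb was 72.5 below 1 kb, 38.5 at 2 to 5 kb, 37.97 at 5 to 10 kb and 48.0 at 20 kb and over. In Suz12F2 it was 56.2, 30, 31.0 and 44.8 in the same classes. In both lists the shortest and the longest islands thus carried more score per kb than those of middle length. No island scored under 33 in Cas9 or under 22 in Suz12F2, however. At such a lowest score a short island has more score per kb than a long one. The high values under 1 kb are therefore no trait of short islands, and the part of this limit in the rank correlations was not tested.

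Islands that held a tumour H3K4me3 peak stood out within each list by score per kb. Their median was 51.1 in Cas9, against 39.2 for islands without a peak, and 57.2 against 31.9 in Suz12F2. The gap was also there among islands of like length. At 1 to 2 kb the medians were 66.7 with and 48.8 without a peak in Cas9, and 80.0 and 37.9 in Suz12F2. At 2 to 5 kb they were 51.0 and 37.6, and 57.9 and 28.7. When each list was divided at its quartiles of score per kb, the share of islands holding an H3K4me3 peak went from 1.93% through 5.64% and 13.3% to 35.6% in Cas9, and from 0.471% through 3.05% and 11.3% to 47.0% in Suz12F2. H3K27me3 regions followed score per kb far less, at 11.1% below the lower and 21.3% above the upper quartile in Cas9, and 13.4% and 19.2% in Suz12F2.

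The share of islands met by the other list depended on length, and differently in the 2 lists. Of Cas9 islands under 1 kb, 66.1% were overlapped by a Suz12F2 island, and the share stayed near that level up to 5 kb (67.3% at 2 to 5 kb) before it reached 86.0% at 5 to 10 kb and 98.2% at 10 to 20 kb. Of Suz12F2 islands under 1 kb, 39.7% were overlapped, against 66.9% at 1 to 2 kb, 83.4% at 2 to 5 kb and 96.8% at 5 to 10 kb. All 1174 Suz12F2 islands of 20 kb and over met a Cas9 island. Without regard to length, the overlapped share rose with score per kb in Cas9 and stayed nearly level in Suz12F2. In the same quartile classes, from low to high score per kb, the overlapped share was 54.1%, 75.5%, 85.2% and 89.6% in Cas9, and 79.6%, 83.3%, 82.4% and 80.3% in Suz12F2. From the lowest to the highest class, median length fell from 4400 to 2400 bp in Cas9 and from 3600 to 2000 bp in Suz12F2. The part of length in these shares was not tested. The common stretches, 244.2 Mb, made up 66.4% of the Cas9 and 83.0% of the Suz12F2 covered length.

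Groups of islands linked by overlap were then sorted by how many islands each list put into them. A single Cas9 island faced a single Suz12F2 island in 33169 cases, called 1 to 1 below, which is 52.5% of the Cas9 and 49.4% of the Suz12F2 list. A further 5727 Cas9 islands were split, meaning that each met 2 or more Suz12F2 islands and nothing else, 13204 in all. The reverse, called merged, took 3905 Cas9 islands into 1873 Suz12F2 islands. The remaining linked islands, 5292 from Cas9 and 6365 from Suz12F2, lay in 2330 groups with several islands from each list. No partner was found for 15084 Cas9 islands (23.9% of the list, 50.5 Mb) and 12468 Suz12F2 islands (18.6%, 25.5 Mb).

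Splitting of Cas9 islands was more frequent than joining. Among overlapped islands, 8664 of 48093 Cas9 islands had 2 or more partners, or 18.02% (17.7 to 18.4), against 4535 of 54611 Suz12F2 islands, or 8.30% (8.08 to 8.54). The Suz12F2 share was 4.95% after islands of each list within 1 kb were merged and 4.71% after merging within 5 kb, and the Cas9 share was then 16.5% and 13.4%. The share grew with length in both lists, since a longer island can meet more others. By length class it was taken over all islands, overlapped or not. It was 2.02% at 2 to 5 kb, 18.6% at 5 to 10 kb, 54.6% at 10 to 20 kb and 80.9% at 20 kb and over in Cas9. In Suz12F2 it was 2.35%, 15.4%, 33.1% and 47.0%. At 2 to 5 kb, 67.3% of Cas9 and 83.4% of Suz12F2 islands were overlapped at all. The order of 2.02% and 2.35% was therefore not read. Below 5 kb both shares were low, and the excess of splits lay among long Cas9 islands. Split Cas9 islands had a median length of 11600 bp and covered 83.4 Mb. Merged Suz12F2 islands had a median length of 8600 bp and covered 20.8 Mb.

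**Figure D2:**
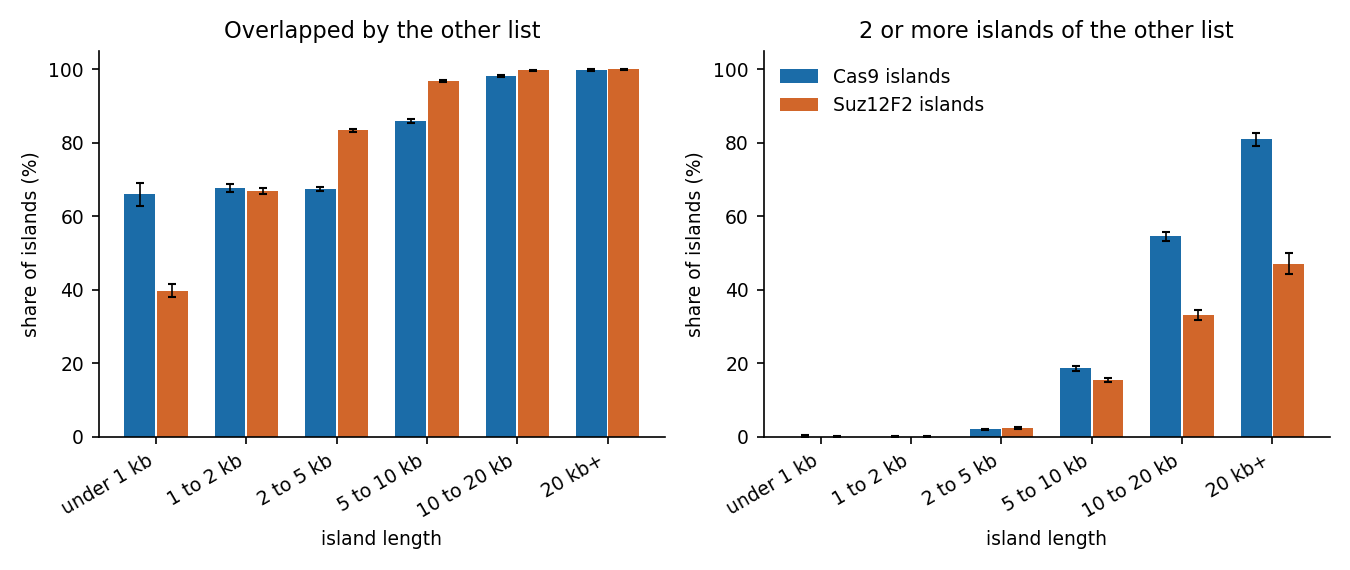
Share of islands (%) in 6 length classes that were overlapped by the other list (left) and that had 2 or more partners in it (right), with Wilson 95% bars for counting error. Short Suz12F2 islands were overlapped less than short Cas9 islands, 39.7% against 66.1% under 1 kb, and long Cas9 islands had 2 or more partners most often, 80.9% at 20 kb and over.

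The gaps inside split islands were short. Between the Suz12F2 islands of 1 Cas9 island lay 7477 gaps with a median of 1000 bp, and 39.4% were exactly 800 bp, the smallest gap in either list, whose windows of 200 bp were joined across gaps of up to 600 bp. Gaps of up to 2 kb made up 83.2%, and the longest was 14000 bp. Together they took 13.3% of the length of the split islands. The 2032 gaps between Cas9 islands inside a merged Suz12F2 island were shorter still, with a median of 800 bp, 55.4% at exactly 800 bp and 94.2% up to 2 kb. Over all gaps of each list, 33.1% in Cas9 and 30.4% in Suz12F2 were up to 2 kb. A gap inside 1 island of the other list has to fit in it, which favours short gaps.

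Tumour promoter peaks seldom fell in these gaps. Split Cas9 islands held the centres of 1773 H3K4me3 peaks, of which 7 lay in a gap, or 0.395% (0.191 to 0.813). For H3K27ac it was 2 of 831, or 0.241% (0.066 to 0.873). Both shares are far under the 13.3% of length that the gaps occupy, but that length is no baseline. A gap lies outside Suz12F2 islands by definition. Over all chromosomes 96.9% of H3K4me3 and 98.6% of H3K27ac centres lay in a Suz12F2 island. Few centres could thus fall in any such gap, and where splits fall cannot be read from these shares. The same limit holds for the Cas9 gaps below. Of H3K27me3 regions, 241 of 2345 centres lay in a gap, or 10.3% (9.11 to 11.6). Over all chromosomes 60.3% of H3K27me3 centres lay in a Suz12F2 island. More of them could thus fall in a gap, and the marks were not compared by these shares. Inside merged Suz12F2 islands, whose Cas9 gaps took 10.5% of the length, the gaps held 20 of 582 H3K4me3 centres, or 3.44% (2.24 to 5.25), and 17 of 292 H3K27ac centres, or 5.82% (3.67 to 9.12). They held 50 of 621 H3K27me3 centres, or 8.05% (6.16 to 10.5).

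Even where 1 island faced 1 island, the Suz12F2 island was mostly the shorter. It was shorter in 20451 of 33169 cases, or 61.7% (61.1 to 62.2), longer in 28.2% and of equal length in 10.1%. The median length was 3800 bp in Cas9 and 3000 bp in Suz12F2, and the median difference within a matched island was -400 bp (quartiles -1600 and 200). Both ends lay further inward by like amounts, with a mean shift along the chromosome of 427.6 bp at the start and -428.2 bp at the end. The Suz12F2 island lay inside its Cas9 partner in 47.5% of cases and around it in 19.9%, and 2128 matched islands had the same start and the same end. Sorted by Cas9 length, the shorter share was 29.6% at 1 to 2 kb and 79.6% at 5 to 10 kb. Sorted by Suz12F2 length it was 71.1% and 50.3% in those classes. Either sorting favours the direction in which the sorted list is extreme, so the classes describe their own list and no trend with length was read from them. The same start was kept in 24.7% and the same end in 24.8%.

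Matched islands at tumour promoters were shorter in Suz12F2 less often. With an H3K4me3 peak in the Cas9 island, the Suz12F2 island was shorter in 52.1% of 6502 cases (50.9 to 53.4), and without one in 64.0% of 26667 (63.4 to 64.6). With the peak sought in the Suz12F2 island the shares were 51.9% and 64.0%. Cas9 islands with a peak were also the shorter ones, with a median of 3000 bp against 3800 bp, and the part of length in this difference was not tested. With an H3K27ac peak the share was 50.2%, and with an H3K27me3 region but no H3K4me3 peak 66.5%. Over all matched islands, length in 1 list ranked with length in the other at a rho of 0.669 (n = 33169, islands sharing their libraries).

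The islands called in 1 list alone differed between the lists in the tumour promoter marks they held. Of 15084 Cas9 islands called alone, 11 held an H3K4me3 peak of tumour Cas9 cells, or 0.0729% (0.041 to 0.131). Of 12468 Suz12F2 islands called alone, 1319 did, or 10.6% (10.1 to 11.1). Over all islands the shares were 14.1% in Cas9 and 15.5% in Suz12F2, so both kinds of island called alone held a peak less often than their list. Islands called alone are short, and per Mb of island the Cas9 ones held 0.317 peaks against 33.8 in the whole list, and the Suz12F2 ones 61.0 against 47.6. For H3K27ac the counts were 5, or 0.0331%, and 824, or 6.61%, against 8.74% of all Cas9 and 9.54% of all Suz12F2 islands. H3K27me3 regions lay in 7.65% of Cas9 and 5.86% of Suz12F2 islands called alone, against 17.2% and 17.0% of all islands. The tumour marks were measured in other cells and did not enter the choice of islands. An island called alone lies outside the other list by definition, however. Of all H3K4me3 peaks, 97.5% met a Suz12F2 island and 86.4% a Cas9 island, so few were left for Cas9 islands called alone. The shares of islands called alone are thus no result apart from these peak shares. With the lists of Ezh2 knockout in place of Cas9 tumour cells, the H3K4me3 shares of islands called alone were 0.0928% and 10.3%. Among 1 to 1 islands, 19.6% of Cas9 islands held an H3K4me3 peak. H3K27me3 regions lay in 31.6% of split Cas9 islands, which are long, and per Mb of island these held 33.3 regions against 36.4 in all Cas9 islands.

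**Figure D3:**
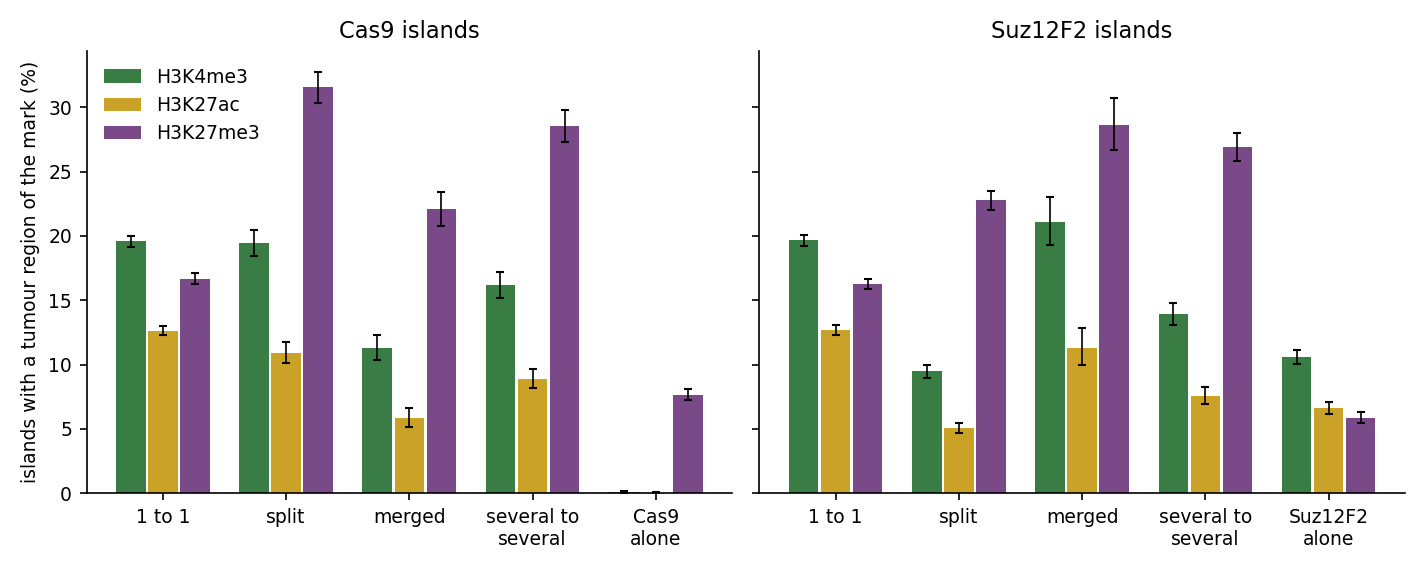
Share of islands (%) that hold a region of tumour Cas9 cells for each of 3 histone marks, by how the island matched the other list, for Cas9 islands (left) and Suz12F2 islands (right), with Wilson 95% bars. H3K4me3 and H3K27ac are at 0.0729% and 0.0331% in Cas9 islands called alone and at 10.6% and 6.61% in Suz12F2 islands called alone, against 14.1% and 8.74% of all Cas9 and 15.5% and 9.54% of all Suz12F2 islands.

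The 1319 Suz12F2 islands called alone at a tumour H3K4me3 peak were short, like others called alone, and dense in score, like others with a peak. Their median length was 1600 bp and their median score per kb 56.4, against 1800 bp and 32.5 for the other 11149 Suz12F2 islands called alone. Overlapped Suz12F2 islands with a peak had medians of 3200 bp and 57.3. The 1319 islands were not fragments beside a Cas9 island as a rule. The median distance to the nearest Cas9 island was 15200 bp, against 7000 bp for those without a peak, and 10.5% lay within 2 kb of one, against 24.2%. Chromosome X held 137 of them, or 10.4% (8.85 to 12.1), and 2.23% of those without a peak. Among overlapped Suz12F2 islands X held 1.31% of those with a peak and 0.294% of those without. The 11 Cas9 islands called alone with a peak had a median length of 2200 bp and none was on X.

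Counted from the side of the marks, 86.4% (85.8 to 87.0) of the 14363 H3K4me3 peaks of tumour Cas9 cells met a Cas9 island and 97.5% (97.2 to 97.7) a Suz12F2 island, although the Suz12F2 islands cover less. Both lists met 12348 peaks, Suz12F2 islands alone 1652, Cas9 islands alone 62 and neither list 301. Peaks met by Suz12F2 islands alone were not weak peaks. Their median score was 26 and median length 531 bp, near the 27 and 622 bp of peaks met by both lists, while peaks met by neither list had medians of 13 and 264 bp. For H3K27ac, 951 peaks met Suz12F2 islands alone and 13 met Cas9 islands alone. The direction was the other way for the 14107 H3K27me3 regions, of which 79.8% (79.1 to 80.4) met a Cas9 island and 75.4% (74.6 to 76.1) a Suz12F2 island. Cas9 islands alone met 1222 and Suz12F2 islands alone 600. Of the length of these regions, 69.2% lay in Cas9 and 60.5% in Suz12F2 islands. Since Suz12F2 islands cover less in all (covered length ratio 0.799), the lower shares were not read as particular to H3K27me3 regions. The lists of Ezh2 knockout tumour cells gave the same directions, at 87.5% and 98.1% for H3K4me3 and 65.9% and 59.0% for the 5312 H3K27me3 regions left there.

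The share of peaks met varied more with their surroundings for Cas9 islands than for Suz12F2 islands. When H3K4me3 peaks were divided at the quartiles of the number of other such peaks within 500 kb, 80.7% of the most isolated and 93.3% of the most crowded class met a Cas9 island. For Suz12F2 islands the shares were 96.9% and 98.2%, so near the upper limit that they had little room to vary. Chromosome X, where Cas9 islands met 42.2% of the peaks, was kept in these classes, and its part was not tested. By peak score the lowest and highest classes were at 82.3% and 89.0% in Cas9 and 93.1% and 99.7% in Suz12F2.

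At the peaks themselves and around them the 2 lists changed places. At the centre of H3K4me3 peaks, 85.5% of positions lay in a Cas9 island and 96.9% in a Suz12F2 island. At 2 kb upstream along the chromosome the shares were 43.97% and 39.1%, and at 20 kb they were 36.3% and 31.0%. H3K27ac peaks gave 86.5% and 98.6% at the centre, and 34.3% and 29.5% at 20 kb. Around H3K27me3 regions Cas9 islands were more frequent at the centre too, with 68.5% against 60.3%, and at 20 kb with 48.9% against 40.0%. Suz12F2 islands were thus more frequent at the promoter peaks and less frequent in their surroundings.

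**Figure D4:**
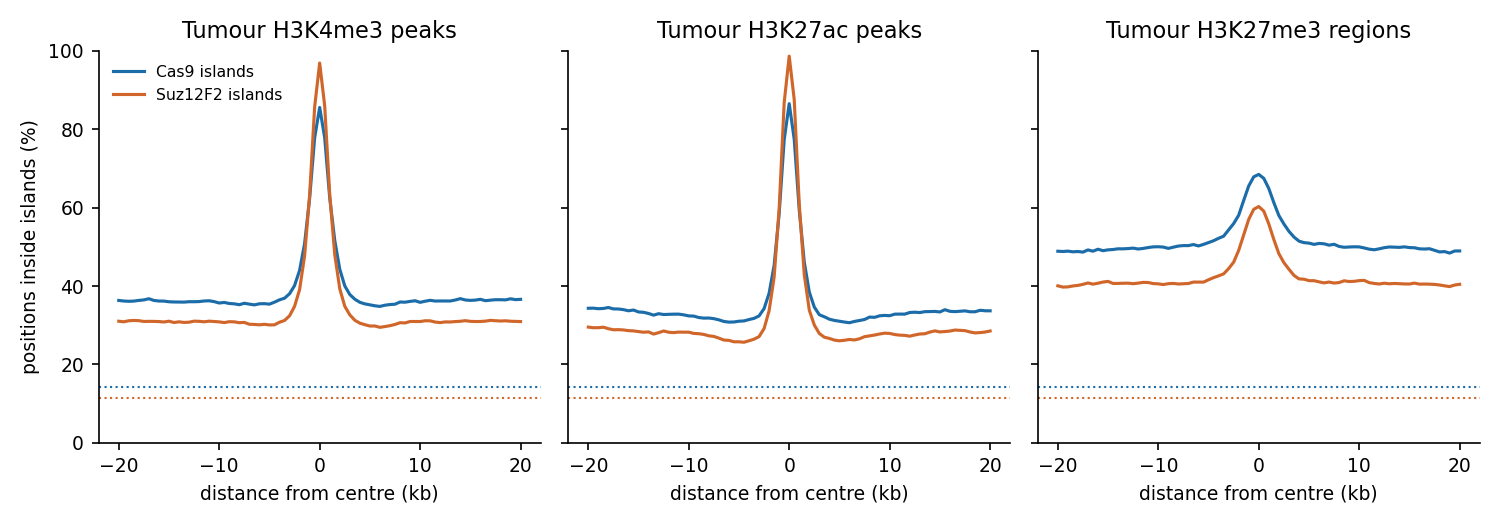
Share of positions (%) inside Cas9 and Suz12F2 islands against the distance (kb) from the centre of tumour H3K4me3, H3K27ac and H3K27me3 regions; dotted lines mark the share of the chromosome spans that each list covers, 14.3% and 11.4%. At H3K4me3 centres the Suz12F2 line is higher, 96.9% against 85.5%, and at 20 kb the Cas9 line is higher, 36.3% against 31.0%.

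Island density varied more between chromosomes than between the lists. On the 19 autosomes Cas9 islands ranged from 12.3 per Mb on chromosome 3 to 43.1 on chromosome 11 (median 26.5), and Suz12F2 islands from 15.9 to 44.7 on the same chromosomes (median 28.7). The rank correlation of both densities over the autosomes was 0.956. H3K4me3 peak density ranked with island density at 0.809 in Cas9 and 0.877 in Suz12F2 (n = 19, chromosomes sharing gene content and libraries). Suz12F2 islands were the more numerous on 16 of 19 autosomes and shorter in the median on 19 of 19. They covered more length on 2 autosomes, chromosome 16 (ratio 1.01) and chromosome 18 (ratio 1.17).

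The ratio of Suz12F2 over Cas9 was unequal among chromosomes. On chromosome 14 it was 0.908 by number and 0.654 by covered length, the lowest among autosomes in both, and 67.8% of its Cas9 islands were overlapped. On chromosome 18 the ratio by number was 1.43, the highest among autosomes, with 59.9% of its Suz12F2 islands overlapped. Chromosome 3, the most sparsely covered autosome, had a number ratio of 1.30 and a covered length ratio of 0.990. Chromosome 11, the most densely covered, had 1.04 and 0.739.

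Chromosome X lay outside the autosomal range in every one of these measures. It held 267 Cas9 islands (1.65 per Mb, 0.466% of its span) and 639 Suz12F2 islands (3.96 per Mb, 0.895%), for ratios of 2.39 by number and 1.92 by covered length. Of the Cas9 islands on X, 93.6% (90.0 to 96.0) were overlapped by a Suz12F2 island, while 39.6% (35.9 to 43.4) of the Suz12F2 islands met a Cas9 island. Of the 386 Suz12F2 islands on X that were called alone, 137 held a tumour H3K4me3 peak and 249 did not. Of the Suz12F2 islands overlapped there, 119 held a peak and 134 did not. A peak was thus not particular to the islands on X called alone. Cas9 islands met 42.2% (37.1 to 47.4) and Suz12F2 islands 89.2% (85.5 to 92.0) of the 351 H3K4me3 peaks there. On autosomes the corresponding shares ran from 76.9% on chromosome 3 to 94.4% on chromosome 11 for Cas9, and from 92.0% on chromosome 13 to 99.6% on chromosome 7 for Suz12F2. More H3K4me3 peaks met Suz12F2 than Cas9 islands on each of the 19 autosomes. The sex and chromosome content of the cultures are not in the labels used here, and their part in the X values was not tested.

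**Figure D5:**
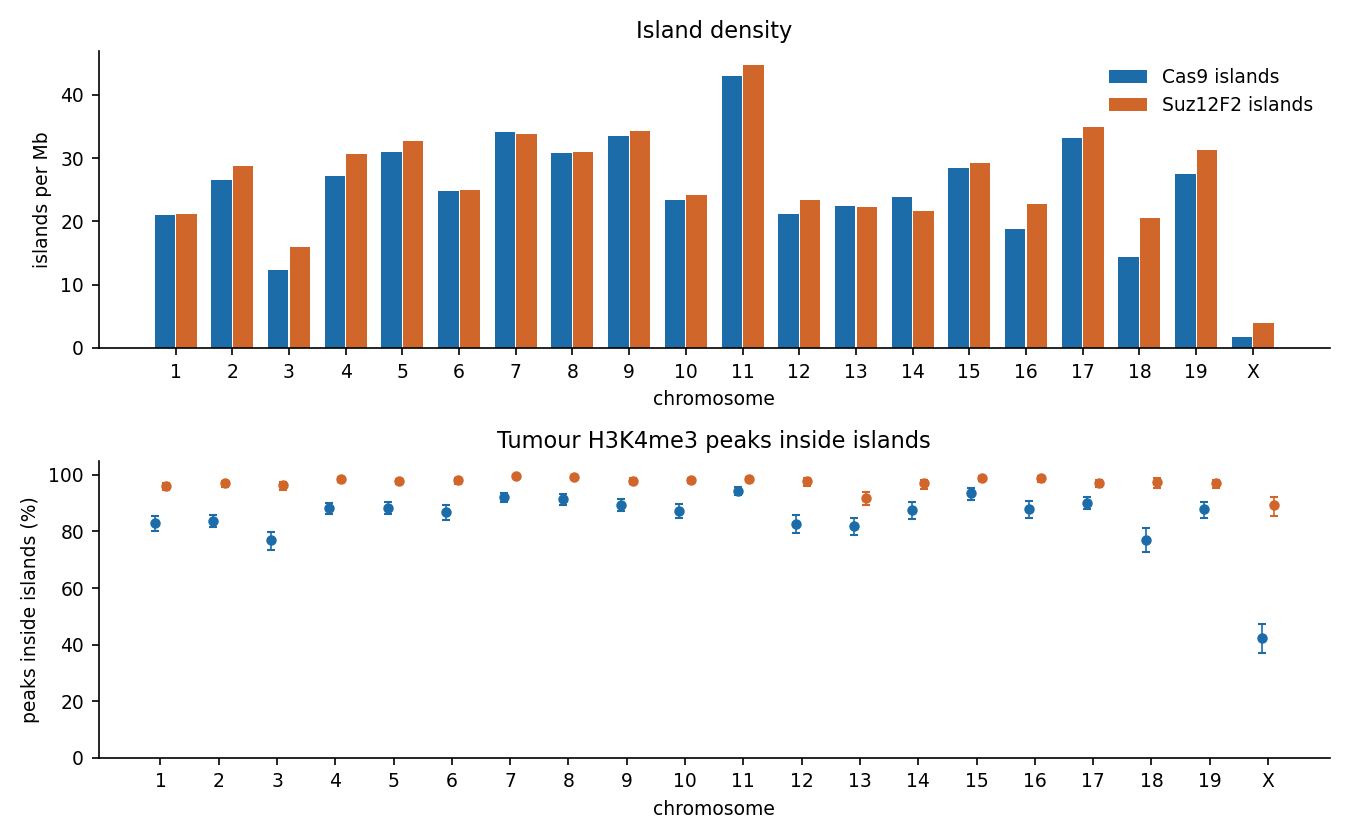
Islands per Mb of chromosome span (top) and share of tumour H3K4me3 peaks that met an island (%, bottom, Wilson 95% bars) for each chromosome and list. Chromosome X has the fewest islands per Mb, 1.65 and 3.96, and the widest gap between the lists in H3K4me3 peaks, 42.2% against 89.2%.

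Single islands show the forms of splitting and merging. The longest Cas9 island, chr5:139811401-139938600 (127.2 kb), was split into 2 parts that left 96.2% of it covered, and held 6 H3K4me3 peaks. The Cas9 island chr11:97764801-97812800 (48.0 kb) was split into 9 islands that covered 80.4% of it, and chr14:70023801-70100800 (77.0 kb) into 8 that covered 62.6%. Neither held a mark of tumour Cas9 cells. The Cas9 island chr7:53428601-53527600 (99.0 kb) also met 9 Suz12F2 islands and contained 14 tumour H3K27me3 regions. In the other direction, the Suz12F2 island chr14:26269801-26387800 (118 kb), with 4 H3K4me3 peaks, joined 6 Cas9 islands, although chromosome 14 had the lowest covered length ratio. The Suz12F2 island chr4:148243401-148350400 (107 kb) likewise joined 6 Cas9 islands and held 6 H3K27me3 regions. The longest Suz12F2 island, chr5:125479801-125624400 (144.6 kb), met 3 Cas9 islands that covered 98.8% of it. A pair of long islands overlapped on chromosome 8, Cas9 chr8:124781401-124903000 (121.6 kb) and Suz12F2 chr8:124744801-124864200 (119.4 kb), with 10 and 9 H3K27me3 regions.

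Among 1 to 1 islands, the largest loss of length was at chr1:90108001-90207800 in Cas9, 99.8 kb, whose Suz12F2 partner measured 55.4 kb. That Cas9 island also held 1 Cas9 antibody island, and its score per kb was 141.8 against a Cas9 list median of 40.4. The next loss was at chr11:109374201-109398600, where 24400 bp in Cas9 faced 600 bp in Suz12F2. Then came chr11:66824401-66845800, where 21400 bp faced 1200 bp. The largest gain was on chromosome 12, from 1600 bp in Cas9 to chr12:105668001-105680400 (12.4 kb) in Suz12F2. Gains to 15.8 kb at chr3:97895801-97911600 and to 11.6 kb at chr2:143893401-143905000 followed. The Suz12F2 island on chromosome 12 held an H3K27me3 region of tumour Cas9 cells, and no other tumour mark of those cells lay in these 6 matched islands. The longest islands without any partner were chr11:101228401-101249200 (20.8 kb) and chr11:88618201-88638200 (20 kb) in Cas9, after 1 of 25 kb on chromosome 5. In Suz12F2 they were chr5:66758601-66773400 (14.8 kb), chr7:119828201-119841800 (13.6 kb) and chr14:77013201-77025800 (12.6 kb). No mark of tumour Cas9 cells lay in any of them, as in 71.4% of all Cas9 and 70.2% of all Suz12F2 islands.

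Islands with the highest score per kb were also found with the Cas9 antibody. Of the islands of at least 2 kb, chr17:39979801-39986000 had the highest value in both lists (1416 in Cas9, 1542 in Suz12F2, each within its own list) with the same start and end. Next came an island on chromosome 11 of 80.0 kb in Cas9 and 78.6 kb in Suz12F2. The third was chr11:108872401-108874600 (223) in Cas9 and chr17:3079001-3085000 (180) in Suz12F2. Each of these held 2 or 3 islands of the Cas9 antibody lists and no mark of tumour Cas9 cells. Islands holding a Cas9 antibody island had a higher median score per kb than the others, 49.1 against 40.0 in Cas9 and 52.2 against 33.6 in Suz12F2. They were also longer, with medians of 5600 against 3800 bp in Cas9 and 4200 against 3000 bp in Suz12F2, and overlapped more often by the other list, at 94.4% against 75.2% and 95.1% against 80.7%. The part of length in that overlap was not tested. Of islands called alone, 1.17% in Cas9 and 1.25% in Suz12F2 held a Cas9 antibody island.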

How the data were processed

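ChIP-seq libraries of mouse neurospheres (Gfi1 antibody, Cas9 and Suz12F2 labels, 1 library each) were compared. The submitters' processing notes list SICER 1.1, BWA 0.5.9-r26, SAMtools, Picard and R 2.14.0, and build mm9, with no role or order. Per the names the authors gave the deposited island lists, windows of 200 bp, gaps of 600 bp and a false discovery rate of 0.00001 were set. The background library of each list is not stated in those sources, and the 3 input libraries were not used. Each deposited island carries its positions and the authors' score. What that score measures is not stated, so it ranks islands within 1 list only. A longer list, or longer islands, can come from a deeper library, and depth is unknown.

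To put the deposited ends on the grid of the starts, 1 bp was added to each. Islands sharing at least 1 bp were linked, and linked groups were sorted by the number of islands from each list. Densities are per Mb of the span from the lowest start to the highest end in any of the 11 lists, because no chromosome lengths of build mm9 were at hand. Some numbered regions of the tumour lists were not analysed here. Python 3.11.15, numpy 2.4.6, pandas 2.3.3, scipy 1.17.1 and matplotlib 3.10.9 were used. Of 20 overlap counts, 0 differed from bedtools 2.31.1, and 4086 of 4086 planted groups were recovered on simulated data. The planted groups stood far apart and none had several islands from each list, so that kind was not checked.

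Islands named are, per list, the 5 longest, the 5 of highest score, the 3 of highest score per kb from 2 kb, the 5 with the most partners, the 3 longest called alone, and the 3 largest gains and losses of length. From these sets some are named, and none on chromosome 18. The members and lists were chosen with earlier results of these data known. No gene annotation of build mm9 was used here, so no island is tied to a gene. Alternatives were other overlap and length minimums, score cuts, merging within 1 or 5 kb, autosomes alone and removal of Cas9 antibody islands.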

Additional observations from a re-analysis of the deposited data

How the results depend on the processing

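Of 55 alternative values computed for 22 results, 43 moved and 12 did not. A share moved if it left the interval of the value by the rule used, and a ratio or rank correlation if it changed after rounding. No ratio moved across 1 and no rank correlation changed sign. The other values are shares, to which neither of these checks applies. Between the lists, the order of the shares with a Cas9 antibody island turned at 50% cover, as given below. No paired analysis was possible because each group held 1 library, and leaving out a replicate was not possible either. With islands of at least 1 kb the number ratio was 1.02, the covered length ratio 0.794, the number ratio on chromosome 14 0.868 and on X 2.22, and the rank correlations of length and score per kb -0.20 (Cas9) and -0.22 (Suz12F2). With islands merged within 5 kb the ratios of number, covered length and median length were 1.101, 0.838 and 0.727, 75.5% of Cas9 and 77.5% of Suz12F2 islands were overlapped, and 13.4% and 4.71% of these had 2 or more partners. Merged within 1 kb, the last shares were 16.5% and 4.95%, and with 400 bp needed for a link the Suz12F2 share was 7.92%. On autosomes alone the covered length ratio was 0.797. Lists trimmed to equal numbers by score gave 0.790 for covered length, 0.8 for median length and 8.54% of Suz12F2 islands with 2 or more partners. Requiring 50% cover of the island left 64.7% of Cas9 and 78.1% of Suz12F2 islands overlapped, and 1.75% of Cas9 and 2.03% of Suz12F2 islands with a Cas9 antibody island (5.00% and 4.72% by the rule used). The upper 50% of scores were overlapped at 74.1% and 79.1%. Outside Cas9 antibody islands the number ratios were 0.907 (chromosome 14) and 2.42 (X), and the rank correlations -0.25 and -0.34.

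With 50% of the tumour region covered, H3K4me3 shares were 85.6% (Cas9) and 96.9% (Suz12F2), H3K27me3 shares 70.1% and 61.1%, and the H3K27ac share in Suz12F2 98.6%. For the upper 50% of tumour scores they were 88.4% and 99.5%, 90.0% and 87.2%, and 99.4%. Chosen after seeing the data, autosomes alone put H3K4me3 at 87.5% in Cas9. Of Suz12F2 islands called alone, 9.78% held H3K4me3 on autosomes, and 13.5% on all chromosomes after merging within 5 kb (10.6% by the rule used). The causes were not tested. Depth is unknown, so fewer or shorter islands may not mean less binding, and 1 library per group leaves culture and label inseparable.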

Other observations

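In bins of 1 Mb, 209 of 2587 bins held no island of either list, 29 held Cas9 islands alone and 147 held Suz12F2 islands alone. The share of a bin that was covered ranked almost alike in both lists, with a rho of 0.980 across bins, which share their libraries. Over 50% of the bin was covered in 220 bins by Cas9 and in 134 by Suz12F2 islands, and the highest cover of any bin was 93.2% for Cas9 and 89.4% for Suz12F2 islands, in different bins. Cas9 islands covered more in 1640 bins and Suz12F2 islands in 698. Sorted by Cas9 cover, the covered length ratio of Suz12F2 over Cas9 was 1.40 in the 891 bins with up to 1% cover, 0.902 at 1 to 5%, 0.744 at 5 to 20%, 0.762 at 20 to 50% and 0.843 above. Bins sorted on 1 list favour the other list at the low end, and how much of the 1.40 comes from that was not tested.

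The longest stretch without an island was chrX:117407801-130222400 (12.8 Mb) in Cas9 and chr7:39234001-46475000 (7.24 Mb) in Suz12F2. The Cas9 list had nearly the same empty stretch on chromosome 7, chr7:39354201-46524400 (7.17 Mb). On X the longest empty stretch of Suz12F2 lay elsewhere, at chrX:83620401-90526600 (6.91 Mb).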
